A study of Rattus norvegicus with 6 samples.

Results

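The genes described here are 33 rat genes of fatty acid oxidation and of the response to PPAR-alpha, taken from a fixed list of symbols. A member was any gene of the list with a probe whose accession matched its symbol or a synonym in RefSeq, and it was represented by its brightest detected probe. All 33 were on the array and all 33 were measured, out of 31087 genes tested in the series. Only 12015 of the 31087 carried a RefSeq symbol, and the others were counted by accession. Shares of all genes below include these entries without a symbol, some of which may repeat a gene. The samples were total RNA of renal cortex. The animals were male rats of the Sprague-Dawley stock (Crl:CD(SD)), 5 weeks old when bought and fed a basal diet. Of these, 3 control rats received water and 3 rats received o-anisidine hydrochloride, an aromatic amine salt, at 700 mg/kg/day, both for 4 weeks. Each rat was measured on 1 single-colour Agilent array. The members fall into 4 omega-hydroxylases, 5 peroxisomal genes, 17 mitochondrial genes and 7 genes of uptake, storage and regulation.

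Fatty acids are a main fuel of the proximal tubule, the bulk of the renal cortex. Long chains enter mitochondria as carnitine esters and are shortened by a repeating spiral of dehydrogenation, hydration, a second dehydrogenation and thiolysis. Very long chains are first shortened in peroxisomes, and a smaller share is hydroxylated at the far end by microsomal enzymes. PPAR-alpha is a nuclear receptor that binds fatty acids and drives the genes of all these routes, in rodents most strongly those of peroxisomes and omega-hydroxylation.

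Levels are given below as log2 signal, that is log2 of the processed spot signal relative to the 75th percentile of the same array, so that 1 unit is a doubling. Of 61657 probes, 41670 to 43630 per array exceeded background clearly, with 0 saturated spots, and every member was well above background on all 6 arrays. All 3 controls and o-anisidine 3 were on 1 slide, and o-anisidine 1 and 2 on another. Summed signal of red blood cell markers was 732 to 1009 times the 75th percentile in controls and 1501 to 1865 times after treatment (7 of 9 listed genes tested), and that of mitosis markers 2.83 to 3.74 and 6.54 to 10.71 times (9 of 11). The part of either in the values below was not tested.

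None of the 33 genes passed the threshold after o-anisidine. The members were tested in limma with Benjamini-Hochberg adjustment over all 31087 genes, two-sided. No member was higher and none lower at an adjusted p under 0.05, against 0.0354% of all genes higher and 0.0257% lower, and the smallest adjusted p of a member was 0.488 (Pex11a). On its brightest probe no member had an unadjusted p under 0.05 either, whereas 6.36% of all genes were higher and 5.14% lower at that level. With each gene's kept probes averaged the count was 1. Dimmer probes of Acaa2, Hadh and Pex11a had log2 changes of -0.39, -0.22 and -0.45 (SE 0.13, 0.08 and 0.17). Among 15 members with several probes, the probes differed in sign in 5. The changes ran from a log2 change of -0.44 for Pex11a to 0.59 for Cyp4a3, with a median of -0.07 over the members and 0.0037 over all genes. When single arrays were left out, the members' median ran from -0.13 (without control 1) to -0.02 (without control 3 or without o-anisidine 1).

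The measurement was tight enough to bound most of these genes. A 95% interval of a single gene's change, not adjusted over genes, lay within a doubling and a halving for 30 of 33 members, the exceptions being Pdk4, Angptl4 and Cyp4a3. It lay within 0.5 log2 units of no change for 21 of 33. Over all genes tested the same shares were 90.9% and 62.7%, close to the shares among members. With 3 arrays a group, differences smaller than these intervals could not be told from 0. The adjusted threshold was stricter than the intervals, so changes larger than them could also be missed. Alas2, a red blood cell marker with a log2 change of 2.13, had an adjusted p of 0.0993 in limma.

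**Figure D1:**
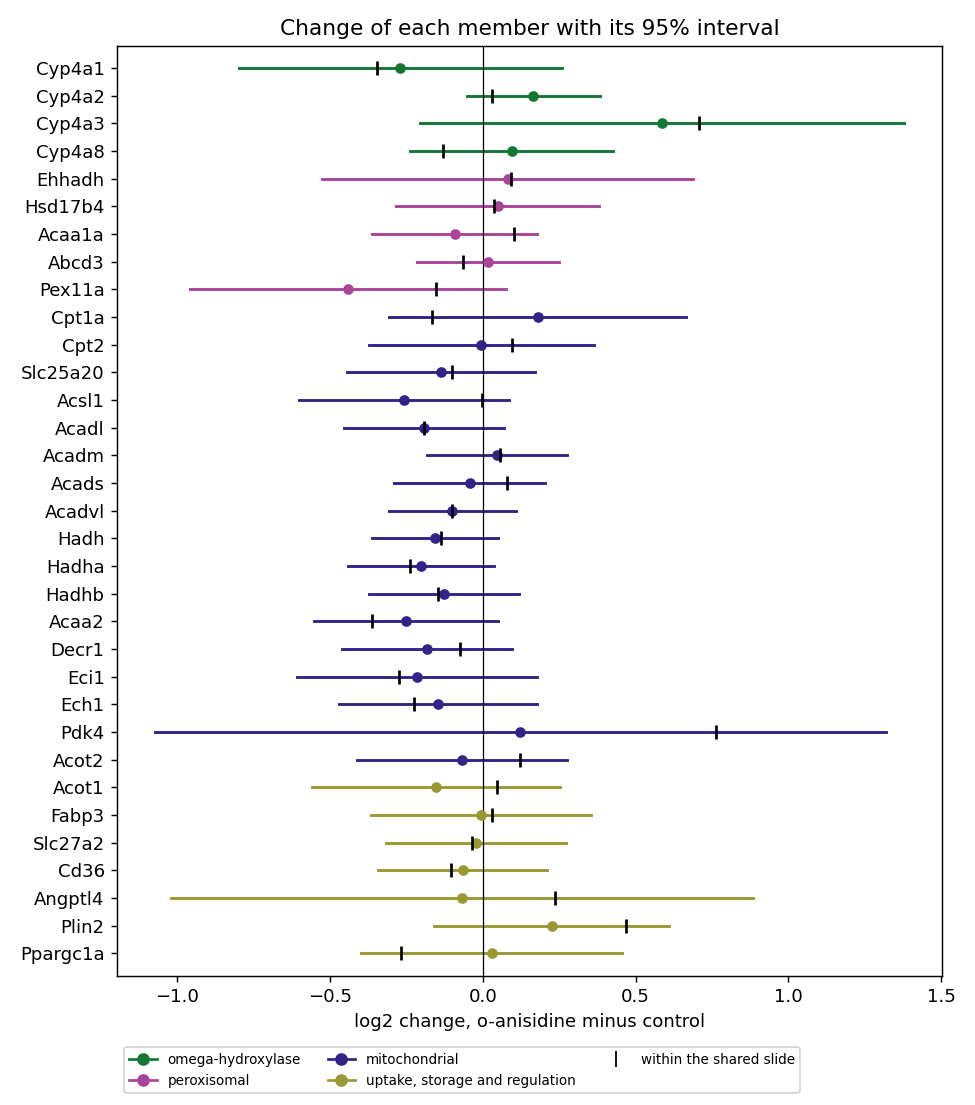
Change of each of the 33 members (horizontal axis, log2 of o-anisidine over control) as a point with its 95% interval from limma, coloured by subset. The black tick is the change of o-anisidine 3 against the 3 controls on the slide they shared, and the intervals all cross 0.

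By sign, 22 members were below 0 and 11 above, where 49.1% of all genes were below 0 and 50.9% above. Without control 3 the count below 0 was 17 of 33 (51.5%, against 49.5% of all genes), and over single arrays left out it ran from 17 to 26. The mitochondrial genes made up most of this, with 14 of 17 below 0 and a median log2 change of -0.14. The peroxisomal genes had a median of 0.02 with 2 of 5 below 0, the omega-hydroxylases 0.13 with 1 of 4, and the genes of uptake, storage and regulation -0.02 with 5 of 7. Without control 3 the last had a median of 0.07 with 1 of 7 below 0, and over single arrays left out its median ran from -0.13 to 0.07. In 2 members, the mitochondrial genes Hadha and Hadh, every treated array was lower than every control on the brightest probe. In 0 members every treated array was higher. By the same choice of probe 8.88% of all genes were apart and lower and 9.55% apart and higher. Both counts were thus at or under the background, but they depended on the probe. A dimmer probe each of Hadh, Acaa2, Acadvl and Pex11a was also lower on every treated array, while the dimmer probes of Hadha overlapped.

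**Figure D2:**
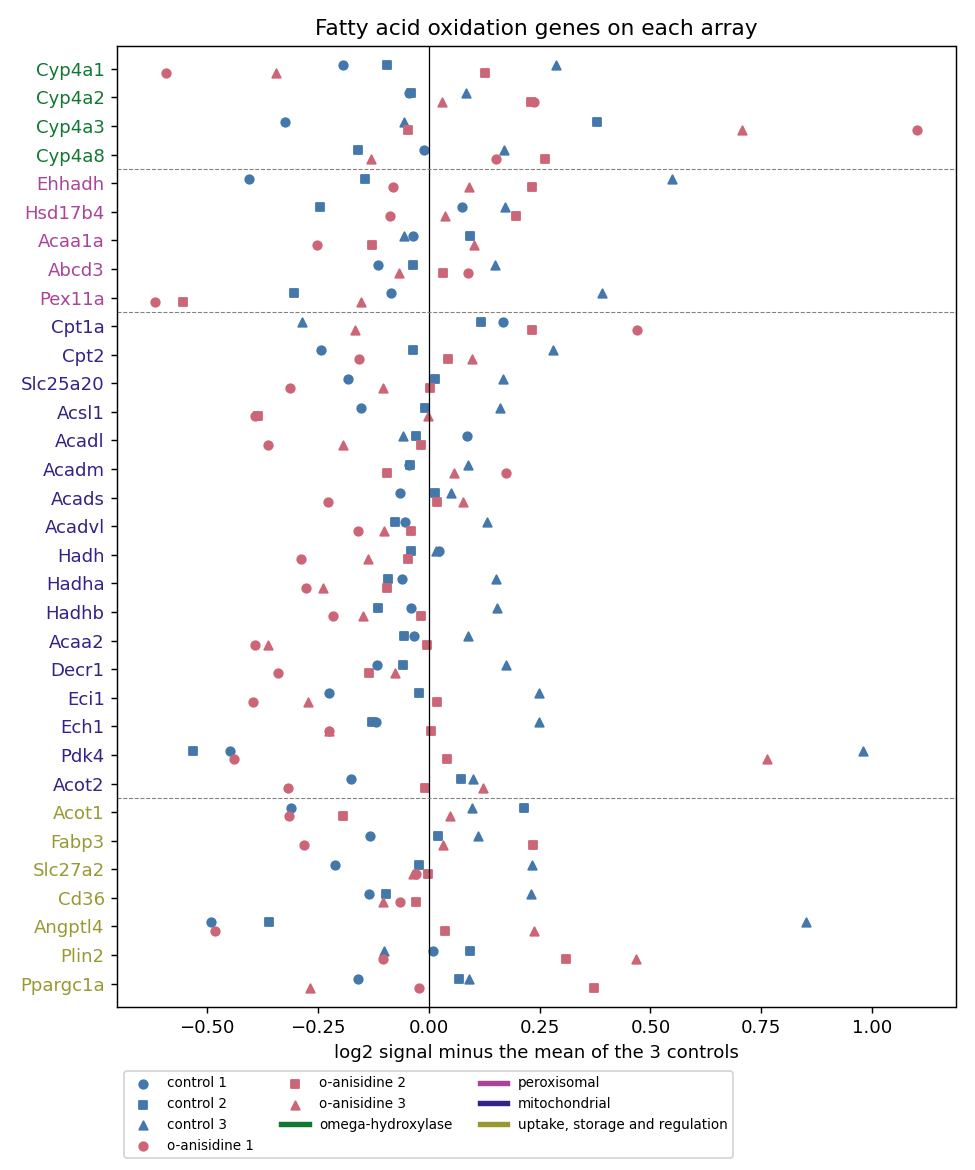
Log2 signal of each of the 33 members on each of the 6 arrays, as the difference from the mean of the 3 controls (horizontal axis). Controls are blue and o-anisidine red, the symbol shape gives the replicate, and names are coloured by subset. On the brightest probe, which is shown, the groups overlap in all genes but Hadha and Hadh. Control 3 (blue triangles) is the rightmost control in 26 of 33.

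The omega-hydroxylases of the Cyp4a family hydroxylate the terminal carbon of fatty acids, and in the kidney they also act on arachidonic acid. Cyp4a2 and Cyp4a3 are close copies that lie in 1 gene cluster with Cyp4a8. The stretch of 180 bases just before the start site is shown for these 3 to compare their upstream regions and the receptor half-site in them. The sequences are from RefSeq on GRCr8, minus strand, at chr5:134170909-134171088 for Cyp4a2, chr5:134352237-134352416 for Cyp4a3 and chr5:133970227-133970406 for Cyp4a8. Capitals mark AGGTCA, the half-site that PPAR-alpha and related receptors bind.
Cyp4a2: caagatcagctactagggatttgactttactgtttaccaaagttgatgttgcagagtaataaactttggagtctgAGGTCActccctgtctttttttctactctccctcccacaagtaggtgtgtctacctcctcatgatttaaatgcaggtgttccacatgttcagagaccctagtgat
Cyp4a3: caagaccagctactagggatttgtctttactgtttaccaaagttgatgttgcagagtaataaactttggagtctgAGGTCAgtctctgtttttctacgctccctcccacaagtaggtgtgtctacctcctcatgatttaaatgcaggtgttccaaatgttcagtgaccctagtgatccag
Cyp4a8: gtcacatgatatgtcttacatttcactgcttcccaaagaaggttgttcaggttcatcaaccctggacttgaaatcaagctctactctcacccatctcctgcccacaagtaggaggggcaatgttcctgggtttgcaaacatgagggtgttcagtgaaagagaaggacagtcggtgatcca
In a global alignment Cyp4a2 and Cyp4a3 were identical in 169 of 184 columns (91.8%), and both carried the half-site with its first base at -105 from the start. Cyp4a8 matched Cyp4a2 in 58.7% of columns and Cyp4a3 in 60.8%, and had no half-site in the window. The stretch is not transcribed and does not bear on the probes. Whether the probes of Cyp4a2 and Cyp4a3 also bind the other copy was not tested, so their values are uncertain in that respect.

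Cyp4a2 and Cyp4a3 varied to different degrees between animals. Cyp4a2 had log2 signals of 8.82, 8.82 and 8.95 in controls 1 to 3 and 9.10, 9.09 and 8.89 in o-anisidine 1 to 3. The groups overlapped only through o-anisidine 3, which lay below control 3, and the log2 change was 0.17 (SE 0.09, with adjusted p = 0.530). Within the slide that o-anisidine 3 shared with the controls, the log2 change was 0.03. The other probe of Cyp4a2 had a log2 change of -0.07 (SE 0.13), the opposite sign.

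Cyp4a3 had log2 signals of 7.24, 7.95 and 7.51 in controls and 8.67, 7.52 and 8.27 after o-anisidine. Treated rats 1 and 3 were above every control, while treated rat 2 fell among them, and the mean change was 1.502-fold with a 95% interval of 0.867 to 2.60 (adjusted p = 0.541). Its change was the highest of all members. It was 0.33 to 0.90 on the log2 scale when each array was left out in turn, highest without o-anisidine 2.

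The remaining hydroxylases differed in sign. Cyp4a1, the rat gene best known as a target of PPAR-alpha in liver, had log2 signals of 5.28, 5.38 and 5.76 in controls and 4.88, 5.604 and 5.13 after o-anisidine. Here treated rats 1 and 3, those with the most Cyp4a3 signal, were below every control, and rat 2 lay between controls 2 and 3. The log2 change of Cyp4a1 was -0.27 (SE 0.22, with adjusted p = 0.671), and the other probe gave -0.26 (SE 0.24). Cyp4a8 had 8.27, 8.12 and 8.45 in controls against 8.43, 8.55 and 8.15, with the groups intermixed and a log2 change of 0.09 (SE 0.14). Its other probes gave 0.16 and 0.17.

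Among the peroxisomal genes, Pex11a had the lowest value of all members. Its product divides and elongates peroxisomes when they proliferate. The log2 signals were 5.28, 5.07 and 5.76 in controls and 4.75, 4.82 and 5.22 after o-anisidine. Treated rats 1 and 2 were below every control and treated rat 3 was inside the control range. The change was 0.736-fold (95% interval 0.515 to 1.05), and all 3 probes on the array gave a similar log2 change (-0.44, -0.42 and -0.45). On the slide shared with the controls it was -0.15.

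Enzymes of the peroxisomal spiral stayed closer to the control mean. Ehhadh, the bifunctional enzyme that hydrates and dehydrogenates straight chains, was at 2.69, 2.95 and 3.64 in controls and 3.01, 3.33 and 3.18 after o-anisidine. Control 3 was the highest of the 6 arrays and control 1 the lowest, so that the treated values lay wholly inside the control range (log2 change 0.08, SE 0.25). Hsd17b4, the second bifunctional enzyme, which takes branched chains and bile acid precursors, had a log2 change of 0.05 (SE 0.14). Acaa1a, the thiolase that ends each turn, had -0.09 (SE 0.11), with 0.10 and 0.07 on its other probes. Abcd3, a transporter that brings acyl-CoA into the peroxisome, had 0.02 (SE 0.10), with every treated value between 6.16 and 6.31 and the controls between 6.11 and 6.37.

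Entry of long chains into mitochondria begins with activation to acyl-CoA by Acsl1. Its log2 signals were 5.50, 5.64 and 5.81 in controls and 5.26, 5.27 and 5.65 after o-anisidine. Treated rats 1 and 2 were below the controls and treated rat 3 was level with control 2, giving a log2 change of -0.26 (SE 0.14, with adjusted p = 0.536). The other probes of Acsl1 gave -0.27, -0.29 and -0.41. Within the shared slide the change was -0.0016.

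Cpt1a, which makes the carnitine ester and is the controlled step of entry, was 1 of only 3 mitochondrial members above 0, with Acadm and Pdk4. It had log2 signals of 2.91, 2.86 and 2.46 in controls and 3.21, 2.98 and 2.58 after o-anisidine, with a change of 0.18 (SE 0.20, with adjusted p = 0.766). Control 3, which had the highest control signal of most members, had the lowest Cpt1a signal of the 6 arrays. Slc25a20, which exchanges carnitine esters across the inner membrane, had a log2 change of -0.14 (SE 0.13). Cpt2, which returns them to acyl-CoA inside, had -0.0053 (SE 0.15), with controls at 2.78, 2.99 and 3.30 and treated arrays at 2.87, 3.07 and 3.12.

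The 4 acyl-CoA dehydrogenases, which open the spiral, had log2 changes between -0.19 and 0.05. Acadl, for long chains, had -0.19 (SE 0.11): controls at 6.37, 6.26 and 6.23 and treated arrays at 5.92, 6.27 and 6.09. Treated rats 1 and 3 were below the controls, and rat 2 was level with control 2. Acadvl, for very long chains, had -0.10 (SE 0.09), Acads, for short chains, -0.04 (SE 0.10), and Acadm, for medium chains, 0.05 (SE 0.09).

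The trifunctional protein carries the later steps for long chains, with Hadha as its alpha and Hadhb as its beta subunit. The genes lie head to head, and part of the stretch between their start sites is shown because it is upstream of both. The 200 bases that the promoter windows of both genes share, which end 50 bases short of either start, are printed from RefSeq on GRCr8 at chr6:31907551-31907750, plus strand, reading towards Hadha. Capitals mark GGGCGG or its complement, a GC box.
Hadha and Hadhb: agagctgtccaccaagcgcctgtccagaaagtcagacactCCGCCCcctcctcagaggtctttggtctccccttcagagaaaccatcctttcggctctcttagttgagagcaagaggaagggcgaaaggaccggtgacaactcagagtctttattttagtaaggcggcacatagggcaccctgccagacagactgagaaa
The stretch held 1 GC box, a motif found on either strand in 33.1% of all promoter windows and in 16 of 29 windows of the members (55.2%).

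Hadha had log2 signals of 3.06, 3.03 and 3.27 in controls and 2.85, 3.03 and 2.88 after o-anisidine. All treated arrays were lower, but treated rat 2 was so close to control 2 that both round to the same value. The log2 change was -0.20 (SE 0.10, with adjusted p = 0.490), and 2 dimmer probes gave -0.09 each. Hadhb was at 2.70, 2.62 and 2.89 in controls and 2.52, 2.72 and 2.59 after o-anisidine, in the same order of animals within each group (log2 change -0.13, SE 0.10).

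The last enzymes of the spiral were also below 0. Hadh, the dehydrogenase for short and medium chains, had controls at 7.44, 7.37 and 7.43 and treated arrays at 7.12, 7.37 and 7.27. The groups were apart by less than the second decimal, with treated rat 2 just under control 2. The log2 change was -0.16 (SE 0.09, with adjusted p = 0.532). The other, dimmer probe of Hadh gave -0.22 (SE 0.08), with controls between 2.60 and 2.62 and treated arrays between 2.28 and 2.48. Acaa2, the mitochondrial thiolase, was at 5.91, 5.89 and 6.04 in controls and 5.56, 5.94 and 5.59 after o-anisidine. Treated rats 1 and 3 were below the controls and rat 2 above controls 1 and 2, and the log2 change was -0.25 (SE 0.12, with adjusted p = 0.495), with -0.39 (SE 0.13) on its other probe.

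Decr1, Eci1 and Ech1 rearrange double bonds so that unsaturated chains can enter the spiral. They had log2 changes of -0.18, -0.22 and -0.15 (SE 0.11, 0.16 and 0.13). In Decr1, Eci1 and Ech1 control 3 was the highest array and treated rat 1 or 3 the lowest, as in Hadhb. Acot2, a mitochondrial thioesterase that releases free acids from acyl-CoA, had a log2 change of -0.07 (SE 0.14), and a much dimmer probe had 0.13 (SE 0.14).

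Pdk4 inhibits pyruvate dehydrogenase and so spares glucose when fat is burned, and it responds strongly to fasting. It had the widest spread within groups of all members. The log2 signals were -2.30, -2.38 and -0.87 in controls and -2.29, -1.81 and -1.09 after o-anisidine. Control 3 and o-anisidine 3 stood above the others, and the treated values lay wholly inside the control range. The change of 1.09-fold had a 95% interval of 0.475 to 2.49, and it was 0.61 on the log2 scale without control 3.

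Angptl4, a secreted inhibitor of lipoprotein lipase and also a gene of fasting, varied in the same way. It was at 3.79, 3.92 and 5.13 in controls and 3.80, 4.32 and 4.52 after o-anisidine. Control 3 was again the highest array and o-anisidine 3 the highest treated array, and the log2 change was -0.07 (SE 0.39) or, without control 3, 0.36. The other probe of the gene repeated this order, with a log2 change of -0.05 (SE 0.38). Pex11a, Acsl1, Cpt2 and Decr1 also had control 3 as the highest array and o-anisidine 3 as the highest treated array.

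**Figure D3:**
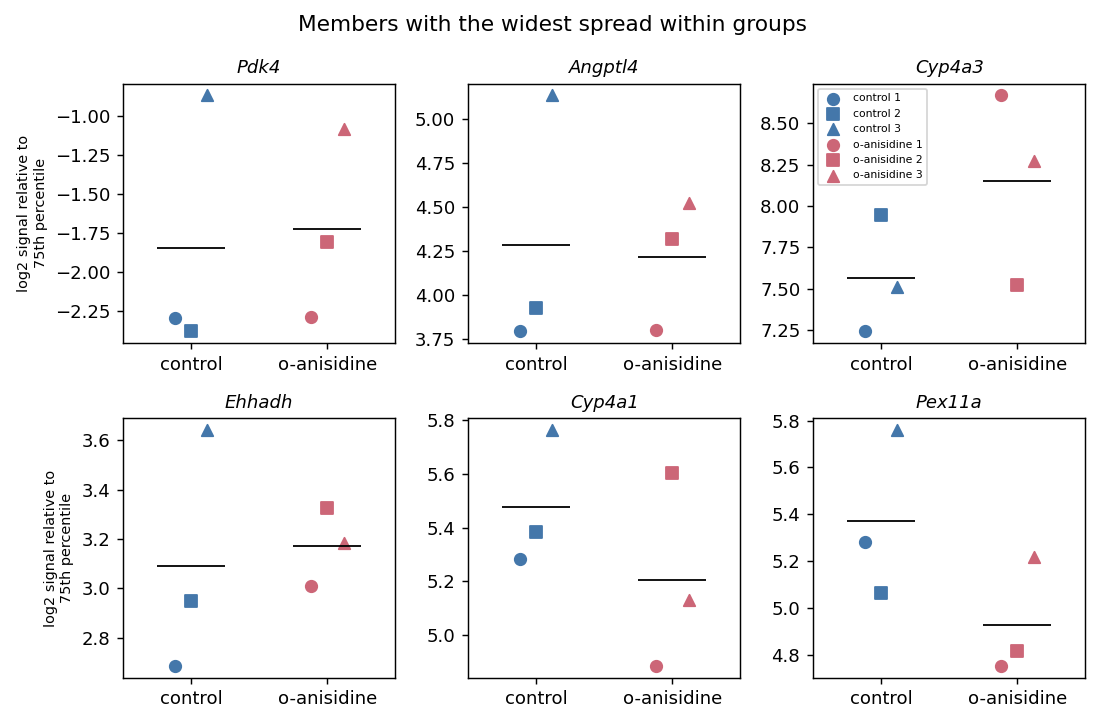
Log2 signal on the scale of the text (vertical axis, separate scale per gene) for the 6 members with the widest spread within groups. Points are single rats, shapes give the replicate and the black line is the group mean. In Pdk4, Angptl4 and Pex11a control 3 is the highest of the 6 arrays and o-anisidine 3 the highest treated array.

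The genes of uptake and storage had small changes. Cd36, a fatty acid receptor of the cell surface, was at 2.16, 2.20 and 2.53 in controls and 2.23, 2.27 and 2.19 after o-anisidine (log2 change -0.07, SE 0.11). Slc27a2, which activates very long chains and helps their uptake, had -0.02 (SE 0.12), with the treated arrays between 7.01 and 7.04 and the controls between 6.83 and 7.27. Fabp3, a cytosolic carrier of fatty acids, had -0.0054 (SE 0.15). Acot1, the cytosolic thioesterase, had -0.15 (SE 0.17).

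Plin2, the coat protein of lipid droplets, was the highest of this subset. Its log2 signals were 4.64, 4.72 and 4.53 in controls and 4.52, 4.94 and 5.10 after o-anisidine, with treated rats 2 and 3 above the controls and treated rat 1 level with the lowest control. The change was 1.17-fold (95% interval 0.896 to 1.52, adjusted p = 0.624), and 0.47 on the log2 scale within the shared slide (adjusted p = 0.374). Ppargc1a, a coactivator of PPAR-alpha that raises mitochondrial genes, was at -0.73, -0.50 and -0.48 in controls and -0.59, -0.20 and -0.84 after o-anisidine (log2 change 0.03, SE 0.18). Its treated values spanned more than the range of the controls.

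The order of the animals was alike in many members. Control 3 had the highest control signal in 26 of 33 members, against 34.1% of all genes tested, and lay above the mean of controls 1 and 2 by a median of 0.23 on the log2 scale, where the median over all genes was -0.0015. The gap was 1.47 in Pdk4, 1.28 in Angptl4, 0.82 in Ehhadh, 0.58 in Pex11a, 0.43 in Cyp4a1 and 0.42 in Cpt2. The 7 members in which another control was highest were Cyp4a3, Acaa1a, Cpt1a, Acadl, Hadh, Acot1 and Plin2. This ordering was noticed after the values were seen and is a description of 3 animals, with no test.

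On the treated side, o-anisidine 1 was the lowest treated array in 23 of 33 members, against 30.9% of all genes. By subset this was 14 of 17 mitochondrial and 4 of 5 peroxisomal members. It was 4 of 7 members of uptake, storage and regulation and 1 of 4 omega-hydroxylases. This order was not tested either. The median shift of the mitochondrial members from the control mean was -0.29 on o-anisidine 1, -0.0082 on o-anisidine 2 and -0.10 on o-anisidine 3, and -0.06, -0.04 and 0.15 on controls 1, 2 and 3. Only o-anisidine 1 and 3 were thus below every control, and o-anisidine 2 lay inside the control range. Without control 3 the mitochondrial median was -0.05 with 13 of 17 members below 0, and without o-anisidine 1 it was -0.08 with 12 of 17. Without o-anisidine 2 it was -0.20 with 14 of 17, and without control 2 -0.18 with 15 of 17. Summed early proximal tubule markers were 1079 to 1225 times the 75th percentile in controls and 1079 to 1319 times after treatment, with 1196 on o-anisidine 1. Of the 8 listed genes, all tested, 6 were above 0 and 2 below, and 0 passed the adjusted threshold. Lrp2 was lower on every treated array. The part of proximal tubule content in the mitochondrial values was not tested.

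**Figure D4:**
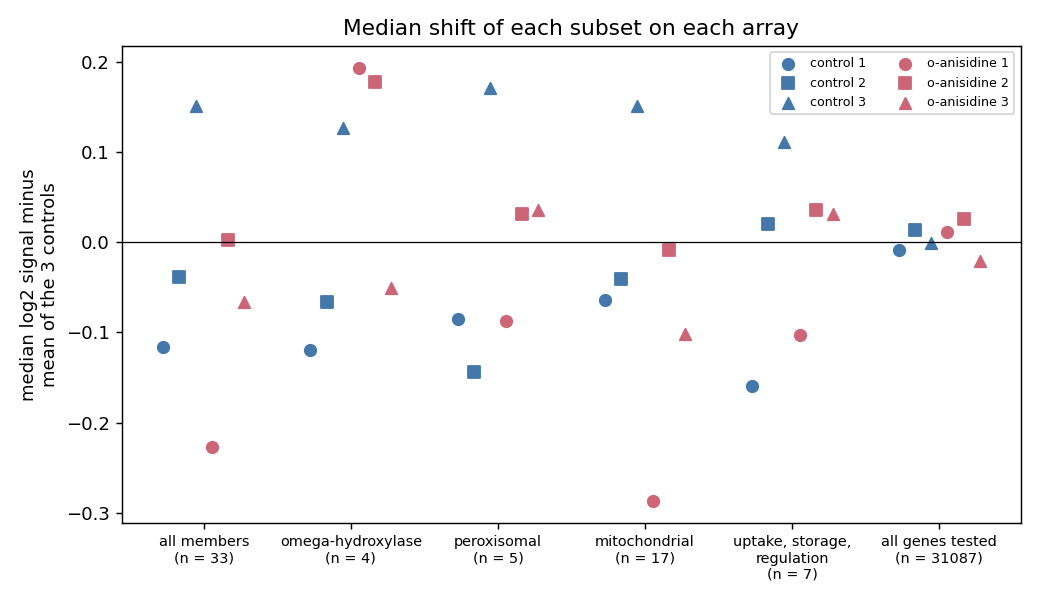
Median over the members of each subset, and over all genes tested, of log2 signal minus the mean of the 3 controls (vertical axis), for each of the 6 arrays. Control 3 is the highest control in all 4 subsets, and o-anisidine 1 is the lowest array of the mitochondrial subset at -0.29.

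The slides were not even over the groups. Within the slide that held the controls and o-anisidine 3, the median log2 change was -0.07 over all members, with 19 of 33 below 0. It was -0.10 over the mitochondrial members with 12 of 17 below 0, 0.04 over the peroxisomal members, -0.05 over the omega-hydroxylases and 0.03 over uptake, storage and regulation. A fit with slide as a block rests on the same contrast and gives the same changes. No member passed the threshold in either, the smallest adjusted p within the slide being 0.374 (Plin2). Slide and the difference between o-anisidine 3 and the other treated rats cannot be told apart.

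Promoter letters were searched for the sites of PPAR-alpha. RefSeq windows on GRCr8, from 250 bases before to 50 after the start, were found for 28 of 33 members, as 29 windows. Cyp4a1, Acadl, Acaa2, Decr1 and Ech1 were not matched. The full site, AGGTCA repeated after 1 spacer base, on either strand, was in 0 of 29 windows and in 0.0538% of 33469 windows of all genes. The half-site AGGTCA alone, which is part of the full site, was in 7 of 29 windows, against 16.2% of all. These were the windows of Cyp4a2, Cyp4a3, Hsd17b4, Slc27a2, Eci1, Acadvl and Hadhb, of which Acadvl held 2 copies. Their log2 changes ran from -0.22 (Eci1) to 0.59 (Cyp4a3), on both sides of 0. A match is only a match of letters, and sites outside these windows were not searched.

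The other genes of the pathway, in 5 lists of 109 genes of which 96 were tested, likewise had none past the threshold. At an unadjusted p under 0.05, 11 of 96 were higher and 5 lower, against 6.36% and 5.14% of all genes. In 17 genes all treated arrays were above all controls and in 8 all were below, against 9.55% and 8.88% of all genes. The median log2 change was 0.05 over the 96 genes, with 58 above 0. The genes named next are the 3 of each list with the smallest p.

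Receptors and cofactors held the 2 smallest p values of the pathway. Hnf4a, a nuclear receptor of proximal tubule and liver that shares binding sites with PPAR-alpha, was at 0.57, 0.36 and 0.63 in controls and -0.04, -0.32 and -0.22 after o-anisidine. All treated rats were below all controls, with a log2 change of -0.71 (SE 0.11, with adjusted p = 0.115), -0.74 within the shared slide, and -0.51 and -0.28 on its other probes. Ppargc1b, the sister coactivator of Ppargc1a, was at -0.0050, 0.10 and 0.19 in controls and 0.56, 0.55 and 0.50 after o-anisidine. Its groups were also apart, in the other direction (log2 change 0.44, SE 0.08, with adjusted p = 0.139). Ppard, the receptor related to PPAR-alpha, had 0.42 (SE 0.10, with adjusted p = 0.229), but its other probes had 0.22 and 0.05. Of the 17 genes tested in this list, 6 were above 0 and 11 below, and 0 passed the threshold.

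Among other peroxisomal enzymes, 12 of 19 were above 0. Crot, which makes carnitine esters of the shortened chains that leave the peroxisome, was at 3.09, 3.03 and 3.05 in controls and 3.31, 3.72 and 3.50 after o-anisidine. The treated rats were all above the controls, by a log2 change of 0.45 (SE 0.11, with adjusted p = 0.252) and 0.45 within the slide. Acot8, a peroxisomal thioesterase, had 0.19 (SE 0.07, with adjusted p = 0.369), and Phyh, which starts the breakdown of branched phytanic acid, had 0.18 (SE 0.08, with adjusted p = 0.437). The groups were apart for both.

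The peroxins, which build peroxisomes, were split with 9 of 15 above 0. Pex10, a ligase of the import machinery, had a log2 change of -0.28 (SE 0.06, with adjusted p = 0.207), with controls between 0.44 and 0.48 and treated arrays between 0.15 and 0.22. Pex7, the receptor for the second import signal, had -0.22 (SE 0.10, with adjusted p = 0.449), and Pex13, a docking protein, 0.15 (SE 0.07, with adjusted p = 0.477).

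In the list of other mitochondrial oxidation and ketone bodies 17 of 22 genes were above 0, where the mitochondrial members had 14 of 17 below. Acad11, an acyl-CoA dehydrogenase, had a log2 change of 0.33 (SE 0.11, with adjusted p = 0.357), with treated arrays between 2.75 and 2.81 and controls between 2.25 and 2.62. Acsl4, which activates arachidonic acid, had 0.37 (SE 0.15, with adjusted p = 0.425). Acacb, which makes the malonyl-CoA that inhibits Cpt1a, had 0.19 (SE 0.08, with adjusted p = 0.458), but -0.04 on its other probe. The difference between these lists was not tested.

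Of the other PPAR-alpha targets and lipid droplet genes, 14 of 23 were above 0. Ucp2, an inner membrane carrier, was at -0.92, -0.81 and -0.87 in controls and -0.25, -0.48 and -0.56 after o-anisidine, all treated rats being higher (log2 change 0.44, SE 0.10, with adjusted p = 0.212). Fads2, a desaturase, had 0.33 (SE 0.10, with adjusted p = 0.336). Fabp1, the liver type carrier of fatty acids, was lower on all treated arrays, at -4.62, -4.96 and -4.29 against -4.20, -4.08 and -3.53 in controls (log2 change -0.69, SE 0.24, with adjusted p = 0.373). Ucp2, Fads2 and Fabp1 differed less within the shared slide, by 0.31, 0.17 and -0.36.

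**Figure D5:**
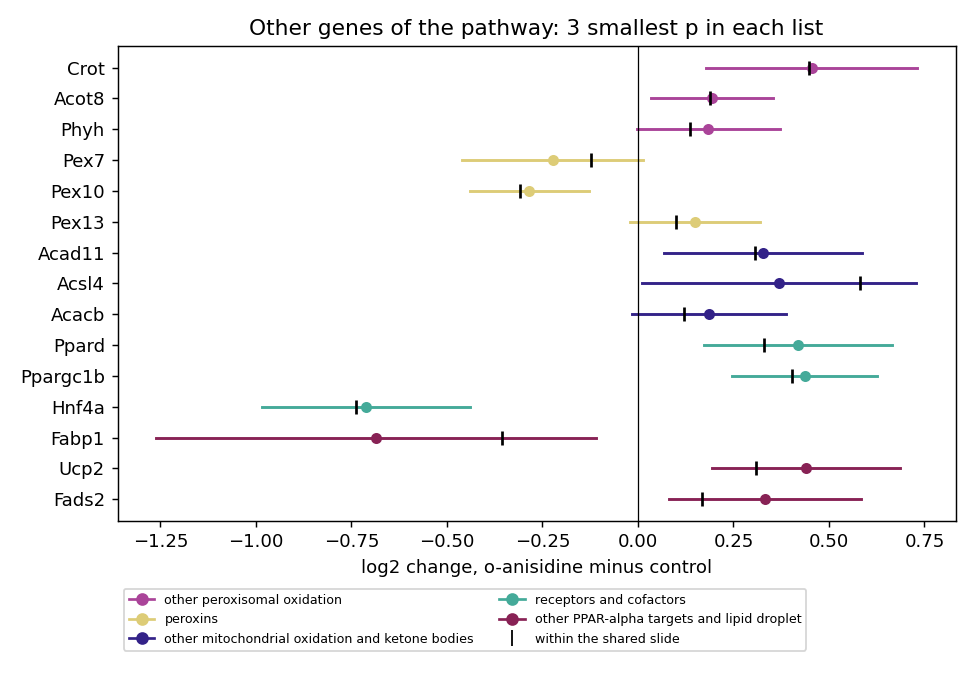
Log2 change of o-anisidine over control (horizontal axis) with the 95% interval for the 3 genes of smallest p in each of the 5 other lists of the pathway. Black ticks are the change within the shared slide. Hnf4a has the smallest adjusted p, 0.115.

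Markers of every part of the nephron on the lists were measured. Late proximal tubule markers summed to 499 to 504 times the 75th percentile in controls and 552 to 629 times after treatment (7 of 7 tested). Without 1 of them, Acy3, the sums were 269 to 313 and 250 to 305 times and overlapped, a check added after seeing the data. Sums of distal tubule and collecting duct markers were 182 to 201 and 114 to 163 times (7 of 7). Adipocyte markers summed to 2.08 to 2.49 times in controls and 2.14 to 2.78 times after treatment (7 of 9 tested), Lep being not well above background in either group. Macrophage markers summed to 89.9 to 103 and 73.0 to 101 times (4 of 7), and Cd163, Itgam and Marco were not well above background in either group. The other sums were 410 to 495 and 429 to 511 times for the thick ascending limb (4 of 5), 31.9 to 35.5 and 24.7 to 33.1 for the glomerulus (5 of 5) and 34.1 to 40.6 and 33.1 to 36.4 for endothelium (6 of 6). The part of these cell types in the members' values was not tested. Fewer cells of a type and less RNA per cell cannot be told apart in such samples.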

How the data were processed

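RNA was labelled with Cy3 and hybridised to single-colour arrays, per the labels' protocols. The deposited scanner files hold intensity as read by Agilent's Feature Extraction software, version 10.7.1.1, per the file headers (10.7 in the submitters' processing notes), on a design annotated on rn4. The processed intensity is background-subtracted and detrended, per the file headers, with no scaling between arrays. The deposited flags of 0 or 1 mark dim, saturated and outlier spots, per the file headers. The authors' deposited value table holds intensity on a linear scale, divided by the 75th percentile of an array, as comparison showed: column medians were 0.104 to 0.108, and each column matched another replicate of its own group (r = 1.00) rather than its own scanner file (r = 0.991 to 0.993). Groups are unaffected, and numbers follow the scanner files.

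Values were log2 processed intensity minus the 75th percentile over 61657 probes. Probes had to exceed background clearly on every array of either group, and 16 with an outlier flag were dropped, which kept 42036 probes, all 55 probes of the members among them. Accessions matched 15284 RefSeq symbols. The brightest probe stood for a gene. limma 3.58.1 (lmFit, eBayes; R 4.3.3) compared the groups, two-sided, with 6.11 total degrees of freedom and Benjamini-Hochberg adjustment. The fit was tested on simulated data. The series design calls the animals biological replicates. Members, lists and the rule for named genes (all members, and the 3 smallest p of each list) were chosen with earlier results of these data known. The planned normexp alternative used the median spot signal because the files hold no mean signal. Names and promoter sequences came from RefSeq on GRCr8. With 3 arrays a group, their number limits the precision.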

Additional observations from a re-analysis of the deposited data

How the results depend on the processing

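No member was past the threshold under any of 17 alternatives, the smallest adjusted p being 0.249 (Acaa2 without o-anisidine 2). Of 33 members, 15 kept their sign throughout, and 18 turned it at least once, none of them with a change above 0.18 in size. The counts below 0 and the count at an unadjusted p were added after seeing the data. That count was 1 with normexp, with kept probes averaged and with trend and robust variance, 2 with quantile normalization, within the shared slide and with the replicate block, and 0 to 4 when an array was left out. The median of the omega-hydroxylases was -0.070 with quantile normalization and -0.051 with slide as a block or within the slide, and the peroxisomal median was -0.11 to 0.093 when an array was left out.

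Signs turned as follows. With slide as a block and within the slide alike, the log2 changes were Cyp4a8 -0.13, Acaa1a 0.10, Abcd3 -0.066, Cpt1a -0.17, Cpt2 0.097, Acads 0.078, Acot2 0.12, Acot1 0.047, Fabp3 0.031, Angptl4 0.24 and Ppargc1a -0.27. With quantile normalization they were Cyp4a2 -0.039, Cyp4a8 -0.10, Abcd3 -0.037 and Acadm -0.0034. There the log2 change of Hsd17b4 was -0.0041. With normexp they were Cpt2 0.026, Fabp3 0.072, Slc27a2 0.047 and Cd36 0.012, and with each gene's kept probes averaged Acaa1a 0.028 and Acot2 0.033. Leaving out single arrays gave ranges of -0.12 to 0.36 for Ehhadh, -0.074 to 0.13 for Hsd17b4, -0.039 to 0.093 for Abcd3, -0.13 to 0.13 for Cpt2, -0.018 to 0.12 for Acadm, -0.10 to 0.048 for Acads, -0.20 to 0.61 for Pdk4, -0.16 to 0.057 for Acot2, -0.13 to 0.13 for Fabp3, -0.13 to 0.095 for Slc27a2, -0.13 to 0.050 for Cd36, -0.31 to 0.36 for Angptl4 and -0.14 to 0.18 for Ppargc1a. The cause was not tested.

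For all genes higher past the threshold and all genes lower past the threshold, 11 and 8 became 68 and 18 with normexp, 91 and 29 with trend and robust variance, 5 and 6 with no filter on dim probes, 9 and 5 with all 6 arrays well above background, 2 and 1 with slide as a block, 1 and 1 within the slide, 1 and 0 with the replicate block, and 2 to 16 and 1 to 5 without single arrays. Same-numbered arrays shared little (r of deviations 0.01 to 0.08, and 3 of 6 arrays correlated best with their own number), so the numbers were not taken as pairs.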

Other observations

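Some genes of the pathway differed widely between animals of 1 group, and those named here were picked with their values in view. Ephx2, the soluble epoxide hydrolase that breaks down epoxides of arachidonic acid, was at 2.16, 2.41 and 1.68 in controls and 1.12, -2.25 and 1.15 after o-anisidine. The treated rats were all lower, o-anisidine 2 the most, and the gene had a log2 change of -2.08 (SE 0.93, with adjusted p = 0.459 in limma), or -0.95 without o-anisidine 2. Fabp4, the carrier of fat and endothelial cells, ranged from -6.84 to -1.33 among controls and from -5.25 to -3.44 after o-anisidine, with control 1 alone not well above background. Acox2, the peroxisomal oxidase of bile acid precursors, was at -1.64, -3.12 and -3.22 in controls and -2.93, -3.29 and -2.56 after o-anisidine, with control 1 above every other array.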
